A study of Mus musculus with 12 samples.

Results

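Transcripts of 10 genes that report on the integrated stress response and the unfolded protein response were followed in oligodendrocyte precursor cells (OPCs) exposed to inflammatory cytokines. The genes were Atf4, Ddit3, Trib3, Asns, Chac1, Sesn2, Hspa5, Herpud1, Xbp1 and Dnajb9, taken by symbol out of 45563 symbols with usable values, and all 10 were above the filter on low values that 18081 genes passed, a mean of 0.1 FPKM (fragments scaled to gene length and library size) or more. OPCs were isolated from cortices of C57BL/6 pups with anti-PDGFRα beads, either wild type (WT) or carrying a germline deletion of TNFR2 (TNFR2-/-), and kept for 3 days in vitro. The methods place the pups at postnatal days 3 to 5, whereas the labels say 2 to 5. Cultures received TNF, IFNγ and IL1β, each at 25 ng/mL, for 3 h (stimulated, St) or PBS vehicle (non-stimulated, NS). Each of the 4 combinations (WT NS, WT St, TNFR2-/- NS and TNFR2-/- St) has 3 of the 12 libraries, with replicates numbered 2, 3 and 4 in WT and 2, 4 and 5 in TNFR2-/- OPCs. Values for single libraries follow that order throughout.

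In the integrated stress response, kinases that sense viral RNA, unfolded protein, amino acid shortage or heme shortage phosphorylate the initiation factor eIF2α, which lowers protein synthesis but favors translation of the transcription factor ATF4. ATF4, often together with CHOP (encoded by Ddit3), then switches on genes for amino acid supply, redox balance and feedback control. The unfolded protein response of the endoplasmic reticulum (ER) shares this PERK branch and adds the sensors IRE1 and ATF6, which raise chaperones and degradation factors, IRE1 by splicing the Xbp1 transcript. Oligodendrocyte lineage cells, which make large amounts of membrane and secretory protein, are known to be sensitive to both responses. Translation of Atf4 and splicing of Xbp1 cannot be read from one value per gene, so the levels below are total transcript levels.

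Library totals ranged from 26886878 to 30335265 read pairs. Tnfrsf1b, which encodes TNFR2 (ENSMUSG00000028599, chr4:145213463-145246870, minus strand of GRCm38), had 15, 12 and 24 reads in WT NS, 145, 61 and 105 in WT St, 322, 346 and 213 in the libraries labelled TNFR2-/- NS and 282, 356 and 290 in those labelled TNFR2-/- St. Its reads were thus higher under the TNFR2-/- label, against what that label says, and in NS OPCs the log2 difference was 2.35 ± 0.21 SE (adjusted p = 0.00134). Which exons the reads cover is not shown by these values, so TNFR2-/- below means libraries with that label, and every direction between genotypes rests on it. OPC markers were high in every group, with a summed level of 7 markers between 6499.8 and 9216 CPM (reads scaled to library size). Within that sum, single markers changed with cytokines in WT OPCs, Olig2 by −1.23, Cspg4 by −0.66 and Sox10 by 0.61 on the log2 scale. Over the 4 groups, 6 mature oligodendrocyte markers summed to 532 to 1298 CPM and 6 neuron markers to 720 to 1127. The 6 astrocyte markers summed to 1656 to 1919 CPM in WT NS, 1557 to 1669 in WT St, 2380.3 to 3704 in TNFR2-/- NS and 2382 to 3675 in TNFR2-/- St. TNFR2-/- culture 5 stood apart in both conditions, with 10491 and 10010 reads of the astrocyte marker Gfap, against 251 to 1926 in the other libraries. The astrocyte marker Aldh1l1 was not highest there (6740 and 5501 reads, against 7274 and 6419 in TNFR2-/- culture 2). Culture 5 also had the most reads of the OPC marker Gpr17 (36530 and 18635) and the oligodendrocyte marker Cnp (16565 and 13514), but not of Mbp (10081 and 7297). The 6 microglia markers summed to at most 1.85 CPM, and 7 mural cell and fibroblast markers to 255 to 872 CPM in WT NS and 108 to 542 in TNFR2-/- NS. In St libraries the mural sums were 323 to 791 CPM in WT and 75.7 to 468 in TNFR2-/-, and they overlapped between genotypes in both conditions. In bulk RNA, a smaller share of a cell type and less RNA per cell cannot be told apart.

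Start sites of the 10 genes were compared for the DNA elements through which both responses are known to act. Windows from RefSeq (GRCm38.p6) span 250 bases before to 50 after each start, and all 10 genes had 1. Letters searched on both strands were TGATGNAA (core of the C/EBP-ATF element bound by ATF4), the ER stress response element (CCAAT, any 9 bases, CCACG), its variant element II (ATTGG, any 1 base, CCACG) and TGACGTGG (core of the unfolded protein response element). They occurred in 3.97%, 0.119%, 0.0365% and 0.676% of all 32851 windows. The C/EBP-ATF core was found in Asns, Chac1, Herpud1 and Trib3, the ER stress response element in Hspa5 and element II in Herpud1, whereas Atf4, Ddit3, Sesn2, Xbp1 and Dnajb9 held none of these letters in the window. Shown here are the 2 genes that changed most with cytokines, Chac1 and Trib3, and 2 ER genes, Hspa5 and Herpud1, with matches in capitals. A match describes the letters and does not show binding.
Chac1 (chr2:119350992-119351291, plus strand; the core lies 193 to 186 bases before the start, on the opposite strand): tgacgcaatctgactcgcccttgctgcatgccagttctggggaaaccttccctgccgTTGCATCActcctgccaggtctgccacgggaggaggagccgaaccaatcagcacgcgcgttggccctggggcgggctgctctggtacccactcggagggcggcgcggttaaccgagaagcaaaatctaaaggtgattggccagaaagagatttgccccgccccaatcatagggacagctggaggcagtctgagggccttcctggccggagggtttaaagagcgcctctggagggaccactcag
Trib3 (chr2:152344011-152344310, minus strand; the core covers bases 15 to 22 of the transcribed side, on the opposite strand): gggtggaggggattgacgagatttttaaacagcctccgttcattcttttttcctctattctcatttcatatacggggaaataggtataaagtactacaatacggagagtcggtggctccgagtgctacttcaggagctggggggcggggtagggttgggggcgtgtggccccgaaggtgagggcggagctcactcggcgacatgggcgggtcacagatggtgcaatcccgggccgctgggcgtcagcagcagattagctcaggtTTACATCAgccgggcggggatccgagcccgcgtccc
Hspa5 (chr2:34771840-34772139, plus strand; the element lies 65 to 47 bases before the start): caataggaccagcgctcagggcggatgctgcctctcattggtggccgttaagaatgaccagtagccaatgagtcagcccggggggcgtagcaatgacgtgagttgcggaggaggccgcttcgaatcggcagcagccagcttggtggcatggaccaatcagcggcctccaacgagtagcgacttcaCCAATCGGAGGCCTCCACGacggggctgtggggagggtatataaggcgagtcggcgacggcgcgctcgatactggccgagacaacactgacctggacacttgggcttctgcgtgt
Herpud1 (chr8:94386179-94386478, plus strand; the C/EBP-ATF core lies 112 to 105 and element II 52 to 42 bases before the start): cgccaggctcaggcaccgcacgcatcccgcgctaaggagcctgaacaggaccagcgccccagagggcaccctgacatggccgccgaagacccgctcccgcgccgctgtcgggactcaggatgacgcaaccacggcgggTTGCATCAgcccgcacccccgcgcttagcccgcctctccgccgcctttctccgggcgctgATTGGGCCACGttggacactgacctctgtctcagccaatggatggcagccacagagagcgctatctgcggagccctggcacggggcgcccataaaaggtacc

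Levels of the 10 genes spanned a wide range. On the scale of CPM per kilobase of annotated exon, which allows genes to be compared, Atf4 averaged 111 over the 12 libraries (95.2 to 121) and Hspa5 109.8 (96.1 to 131), and their ranges overlapped. Asns followed at 62.9 and Sesn2 at 29.5, then Xbp1 at 20.2 and Dnajb9 at 19.3. Herpud1 averaged 12.6, Ddit3 9.56, Chac1 6.36 and Trib3 2.83. In this order, neighbors overlapped in range except for Hspa5 over Asns, Asns over Sesn2 and Dnajb9 over Herpud1. Atf4 and Hspa5 were each above 97.9% or more of 17078 genes with a known length, and Trib3 above 47.3%. The FPKM that follow were divided by lengths unrelated to annotated exons (for Trib3 8118 bases against 2125), so they are compared between libraries for 1 gene only.

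**Figure D1:**
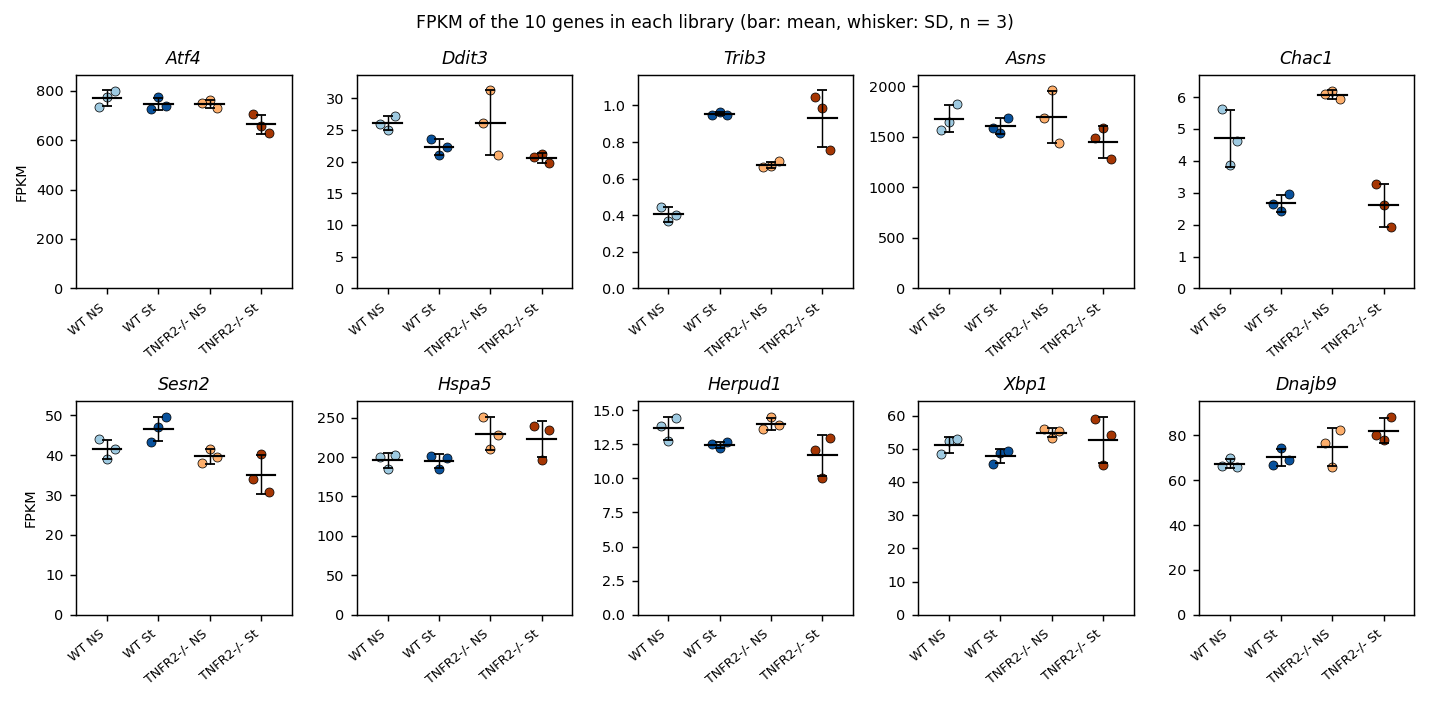
FPKM of each of the 10 genes (vertical axes, from 0) in the 12 libraries, by group, with bars at the mean and whiskers of 1 SD (n = 3). Chac1 is lower and Trib3 higher in St than in NS libraries of both genotypes, and the remaining genes differ little between groups.

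The first question was whether 3 h of cytokines moved these genes. Of the 10, only Chac1 passed the test for differential expression in either genotype, and it fell in both. To pass, a gene needed an adjusted p not above 0.05, a change of 1.5-fold or more either way, and a mean over the 12 libraries that reached 1 FPKM. Trib3 rose in WT OPCs and met the p and fold criteria there, but not the level in FPKM. In WT OPCs 1 of the 10 genes fell and 0 rose, beside 2.95% of all tested genes that fell and 4.58% that rose. In TNFR2-/- OPCs 1 fell and 0 rose, beside 4.68% and 5.41%. By adjusted p alone, 2 of 10 passed in each genotype, against 16.1% of all genes in WT and 26.0% in TNFR2-/- OPCs. That count came from the model without pairing. With NS and St libraries paired by culture as a fixed or random block, Asns, Ddit3 and Herpud1 also passed in TNFR2-/- OPCs. Dnajb9 joined them with the fixed and Trib3 with the random block, and no further gene did in WT OPCs. The share of all genes under these blocks is not given here. The median log2 fold change of the 10 was −0.053 in WT and −0.18 in TNFR2-/- OPCs, where the medians of all genes were −0.055 and −0.11. For 8 of 10 genes in WT and 9 of 10 in TNFR2-/- OPCs the 95% interval of the change lay within 1.5-fold either way. The labels do not say that the libraries came from separate cultures, but same-numbered libraries of a genotype varied together across conditions, so changes are also given per culture.

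Chac1, an enzyme that degrades glutathione and a late target of ATF4 and CHOP (ENSMUSG00000027313, chr2:119351229-119354381, plus strand), had 5.61, 3.86 and 4.63 FPKM in WT NS and 2.64, 2.43 and 2.95 in WT St. In TNFR2-/- OPCs it had 6.11, 6.19 and 5.94 FPKM without and 3.29, 2.60 and 1.92 with cytokines. All St libraries were below all NS libraries in both genotypes. The means were 4.70 ± 0.879 and 2.67 ± 0.261 FPKM (SD, n = 3) in WT and 6.08 ± 0.130 and 2.60 ± 0.683 in TNFR2-/- OPCs, on 143 to 486 reads per library. The log2 fold change was −0.70 ± 0.17 SE in WT (adjusted p = 0.0156) and −1.11 ± 0.17 SE in TNFR2-/- OPCs (adjusted p = 0.000760). Per culture, Chac1 changed by −0.96, −0.57 and −0.57 in WT and by −0.80, −1.11 and −1.41 in TNFR2-/- OPCs, lower in 6 of 6. The WT result was lost without WT NS replicate 2 (−0.58, adjusted p = 0.0649) or WT St replicate 3 (−0.65, 0.0573), within adjusted p values of 0.00128 to 0.0649 over its alternatives. The TNFR2-/- result passed in each of its alternatives and without culture 5, at −0.96 (adjusted p = 0.00523).

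Trib3, a pseudokinase induced by ATF4 and CHOP that feeds back on them (ENSMUSG00000032715, chr2:152337422-152344032, minus strand), went the other way. It had 109, 80 and 98 reads in WT NS and 232, 235 and 232 in WT St, and 162, 164 and 171 in TNFR2-/- NS and 255, 242 and 176 in TNFR2-/- St. All St libraries were above all NS libraries of their genotype, and TNFR2-/- NS libraries lay between WT NS and WT St. On the CPM scale the means were 3.29 ± 0.328 and 7.75 ± 0.0674 (SD, n = 3) in WT and 5.48 ± 0.138 and 7.54 ± 1.25 in TNFR2-/- OPCs. The log2 fold change was 0.68 ± 0.097 SE in WT (adjusted p = 0.000678), past both the p and the fold thresholds, and 0.28 ± 0.097 SE in TNFR2-/- OPCs (adjusted p = 0.0604). Trib3 was not counted as differentially expressed because its mean was under 1 FPKM, but with the level set at 2 CPM, a rule added after the values were seen, it passed in WT and the count became 2 of 10. Its FPKM of 0.367 to 1.05 are close to the 0.5 FPKM added before the logarithm, which shrinks the change. Both the missed level and this shrinkage rest on FPKM divided by 8118 bases, against 2125 of annotated exon. Per kilobase of annotated exon, Trib3 averaged 2.83 CPM. On recovered reads (voom) its change was 2.35-fold in WT (adjusted p = 9.83e-05) and 1.37-fold in TNFR2-/- OPCs (adjusted p = 0.0270). Per culture the change was 0.61, 0.76 and 0.68 in WT and 0.41, 0.35 and 0.072 in TNFR2-/- OPCs, higher in 6 of 6. The smallest was in TNFR2-/- culture 5, the one with high Gfap, Gpr17 and Cnp, and without that culture the TNFR2-/- change was 0.38 (adjusted p = 0.0282, within 0.0129 to 0.179 over all alternatives).

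**Figure D2:**
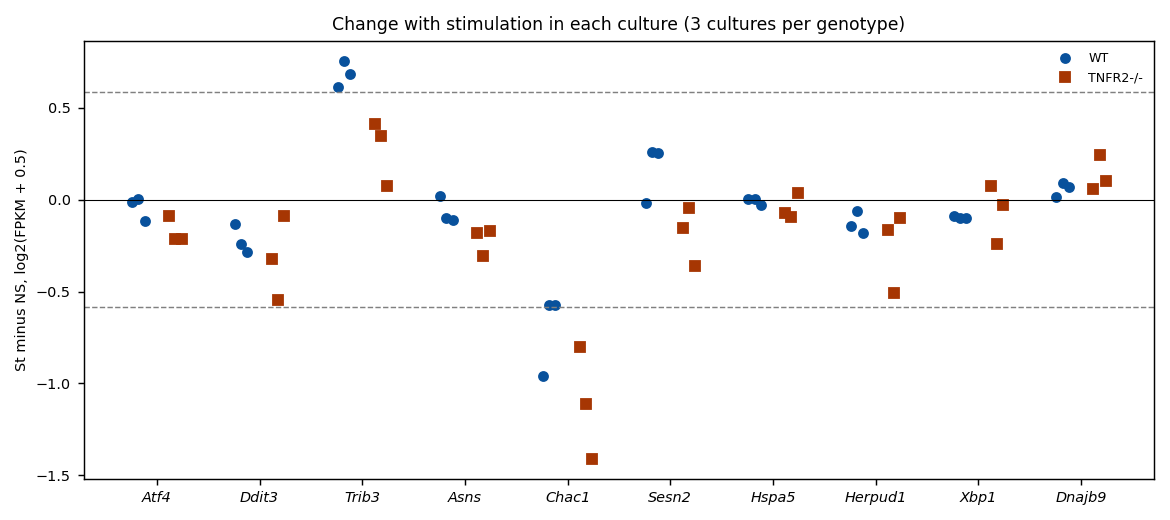
Difference in log2(FPKM + 0.5) between the St and NS library of each culture (vertical axis) for the 10 genes, with 3 WT cultures as circles and 3 TNFR2-/- cultures as squares and dashed lines at a 1.5-fold change either way. All 6 cultures lie below 0 for Chac1 and above 0 for Trib3, and all points of the other 8 genes lie within the dashed lines.

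The 4 remaining genes of the ATF4 branch did not pass. Atf4 itself (ENSMUSG00000042406, chr15:80255184-80257541, plus strand) had 735, 773 and 799 FPKM in WT NS and 728, 775 and 739 in WT St, which overlapped. In TNFR2-/- OPCs it had 752, 762 and 730.4 FPKM without and 706, 656 and 631 with cytokines, and the St libraries were lower without overlap. Its change was −0.041 ± 0.055 SE in WT (adjusted p = 0.707) and −0.17 ± 0.055 SE in TNFR2-/- OPCs (adjusted p = 0.0399), the latter past the p threshold at 0.887 of the NS level and well under the fold threshold. It was above 0.05 without any 1 of WT NS replicate 3, WT St replicate 2 or 4, the TNFR2-/- NS libraries and TNFR2-/- St replicates 4 and 5. With median-of-ratios scaling that adjusted p was 0.614, and without culture 5 it was 0.106. It was 0.124 with only the 6 libraries compared, 0.0791 with no trend and 0.0528 with no filter on low values. In the other direction, it was 0.0109 and 0.00340 with the fixed and random block by culture, and 0.0246 with quantile normalization. Ddit3, which encodes CHOP (ENSMUSG00000025408, chr10:127290774-127296288, plus strand), had 25.9, 25.0 and 27.2 FPKM in WT NS and 23.6, 21.1 and 22.2 in WT St, lower in 3 of 3 cultures. It had 26.1, 31.2 and 21.1 FPKM in TNFR2-/- NS and 20.7, 21.3 and 19.8 in TNFR2-/- St, again lower in 3 of 3 cultures but with overlap, as NS replicate 5 was low. The changes were −0.22 ± 0.12 SE (adjusted p = 0.272) and −0.32 ± 0.12 SE (adjusted p = 0.0723). Ddit3 overlaps the end of Mars and an antisense gene, and since strand was not stated for the counting, their reads cannot be told apart.

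Asns, which makes asparagine and is a standard ATF4 target (ENSMUSG00000029752, chr6:7675169-7693254, minus strand), had 1564, 1649 and 1825 FPKM in WT NS and 1585, 1538 and 1689.8 in WT St. Its values were 1686, 1959 and 1443 in TNFR2-/- NS and 1485, 1587 and 1281 in TNFR2-/- St, and NS and St overlapped in both genotypes. Its change was −0.064 ± 0.11 SE in WT (adjusted p = 0.794) and −0.22 ± 0.11 SE in TNFR2-/- OPCs (adjusted p = 0.190). Sesn2, a leucine sensor that restrains mTORC1 (ENSMUSG00000028893, chr4:132492032-132510501, minus strand), had 44.0, 39.1 and 41.5 FPKM in WT NS and 43.4, 47.0 and 49.5 in WT St. In TNFR2-/- OPCs Sesn2 had 38.0, 41.7 and 39.6 FPKM without and 34.0, 40.4 and 30.8 with cytokines, lower in 3 of 3 cultures, whereas WT cultures changed by −0.017, 0.26 and 0.25. Neither change of Sesn2 passed, at 0.17 ± 0.096 SE in WT (adjusted p = 0.318) and −0.19 ± 0.096 SE in TNFR2-/- OPCs (adjusted p = 0.189). When NS and St libraries were paired by culture as a fixed or random block, adjusted p values in TNFR2-/- OPCs were 0.00520 and 0.0179 for Asns and 0.0223 and 0.00932 for Ddit3, with both changes still below the fold threshold.

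None of the 4 genes of the ER branch passed. Hspa5, which encodes the chaperone BiP and is the usual marker of ER stress (ENSMUSG00000026864, chr2:34771970-34777547, plus strand), had 200.4, 185 and 202 FPKM in WT NS and 201, 185 and 199 in WT St. It had 251, 210.1 and 228 FPKM in TNFR2-/- NS and 239, 197 and 234 in TNFR2-/- St. Stimulated and non-stimulated libraries overlapped in both genotypes, on 10922 or more reads per library, and the change was −0.0058 ± 0.087 SE in WT and −0.044 ± 0.087 SE in TNFR2-/- OPCs (adjusted p = 0.983 and 0.759). The 95% intervals, −0.20 to 0.19 and −0.24 to 0.15, hold 0 in both genotypes, and with median-of-ratios scaling both changes took the opposite sign (0.053 and 0.074). Xbp1, the transcription factor activated by IRE1 (ENSMUSG00000020484, chr11:5520659-5525893, plus strand), had 48.4, 52.2 and 52.8 FPKM in WT NS and 45.5, 48.6 and 49.3 in WT St. Xbp1 values in TNFR2-/- OPCs were 55.9, 53.3 and 55.2 without and 58.9, 45.1 and 54.0 with cytokines, and the changes were −0.096 ± 0.088 SE and −0.066 ± 0.088 SE (adjusted p = 0.566 and 0.635). Among TNFR2-/- St libraries, replicate 4 was the lowest for Xbp1, Hspa5 and Herpud1.

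Herpud1, a membrane protein of ER-associated degradation (ENSMUSG00000031770, chr8:94386438-94395377, plus strand), had 13.8, 12.8 and 14.4 FPKM in WT NS, 12.5, 12.2 and 12.7 in WT St, 13.6, 14.5 and 13.9 in TNFR2-/- NS and 12.1, 10.05 and 12.9 in TNFR2-/- St. It was lower with cytokines in 6 of 6 cultures, at −0.13 ± 0.092 SE on the log2 scale in WT (adjusted p = 0.433) and −0.26 ± 0.092 SE in TNFR2-/- OPCs (adjusted p = 0.0656, or 0.0452 and 0.0139 with the fixed and random block). Dnajb9, a BiP co-chaperone raised by spliced XBP1 (ENSMUSG00000014905, chr12:44205559-44210326, minus strand), had 66.4, 69.9 and 66.0 FPKM in WT NS, 67.0, 74.5 and 69.3 in WT St, 76.8, 65.8 and 82.3 in TNFR2-/- NS and 80.1, 78.0 and 88.4 in TNFR2-/- St. Dnajb9 was higher in 6 of 6 cultures, but only by 0.058 ± 0.085 SE and 0.13 ± 0.085 SE (adjusted p = 0.741 and 0.281, the latter 0.0440 with the fixed block). Both differences were far below the fold threshold. Herpud1 overlaps an antisense gene and Dnajb9 a miRNA gene, and Sesn2 also has an overlapping gene, whose reads cannot be separated here.

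**Figure D3:**
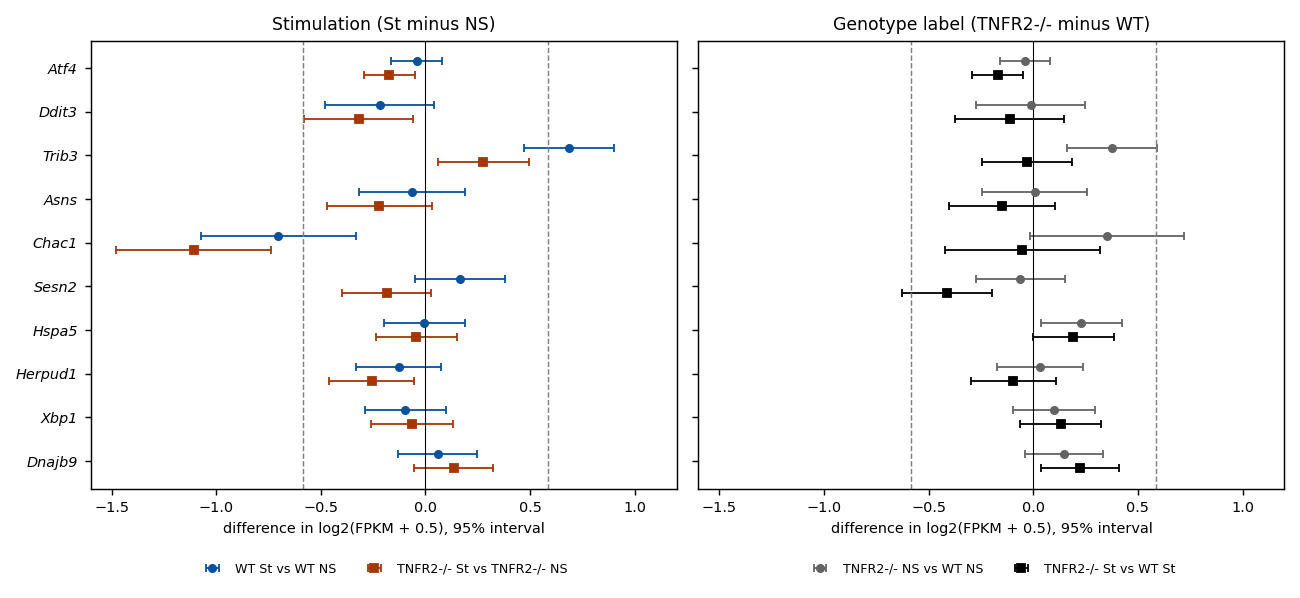
Differences in log2(FPKM + 0.5) with their 95% intervals (horizontal axes) for the 10 genes, on the left between St and NS in each genotype and on the right between TNFR2-/- and WT in each condition, with dashed lines at 1.5-fold either way. With stimulation only Chac1 (both genotypes) and Trib3 (WT) have estimates beyond the lines, and between genotypes none of the 10 does on this scale.

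The second question was whether the genes differed between genotypes, before or after stimulation. None of the 10 passed in limma, with 0 of 10 in NS OPCs (against 1.62% of all genes up and 1.28% down) and 0 of 10 in St OPCs (1.18% up and 0.614% down). Voom on the recovered reads also gave 0 in both, in NS OPCs because Trib3 was under the 1 FPKM level. At an unadjusted p under 0.05 there were 2 in NS and 3 in St OPCs, near the 30.2% and 26.7% of all genes, and by adjusted p alone 1 in each, against 10.9% and 5.45% of all genes. In NS OPCs the gene was Trib3, higher in TNFR2-/- by 0.38 ± 0.097 SE (adjusted p = 0.0374, 0.0159 to 0.134 over its alternatives), with all 3 libraries above the WT ones. On recovered reads (voom) the difference was 0.73, or 1.66-fold (adjusted p = 0.0159), past both the p and the fold thresholds, and with a pseudocount of 0.1 FPKM it was 0.62 (adjusted p = 0.0329), so only the 1 FPKM level kept it from being counted there. The call by p was lost with the random block (0.0573), without culture 5 (0.0580) and without any 1 of the WT or TNFR2-/- NS libraries, up to 0.134 without WT NS replicate 3. Median-of-ratios scaling (0.0509), quantile normalization (0.0529), no filter on low values (0.0507) and only the 6 libraries compared (0.0888) also removed it. After stimulation Trib3 overlapped between genotypes, at 0.950, 0.964 and 0.950 FPKM in WT St and 1.05, 0.985 and 0.755 in TNFR2-/- St (−0.031 ± 0.097 SE, adjusted p = 0.867).

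In St OPCs the gene was Sesn2, lower in TNFR2-/- libraries at −0.41 ± 0.096 SE on the log2 scale (adjusted p = 0.0406, 0.0201 to 0.131 over its alternatives), or 0.751 of the WT level. Its 3 TNFR2-/- St values, 34.0, 40.4 and 30.8 FPKM, were all below the WT St values. In NS OPCs the same difference was −0.061 ± 0.096 SE (adjusted p = 0.716). The St difference lost its p call without culture 5 (−0.32, adjusted p = 0.0965) and also without any 1 of the WT libraries, TNFR2-/- NS replicate 2, and TNFR2-/- St replicates 2 and 5, up to 0.131 without WT St replicate 3. Processing also removed it, with median-of-ratios scaling (0.0542), quantile normalization (0.0517), no trend (0.0535), no filter on low values (0.0618) and only the 6 libraries compared (0.109). Sesn2 lies on chromosome 4, 12.7 megabases from Tnfrsf1b. As given above, summed astrocyte markers were higher in TNFR2-/- St than in WT St without overlap, while summed mural markers overlapped. The part of either in the Sesn2 difference was not tested.

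Hspa5 was higher in TNFR2-/- libraries in both conditions without passing, by 0.23 ± 0.087 SE in NS libraries (adjusted p = 0.111) and by 0.19 ± 0.087 SE in the St ones (adjusted p = 0.193). All 3 TNFR2-/- NS values, the lowest 210.1 FPKM, were above the highest WT NS value of 202, while in St OPCs replicate 4 fell among the WT values. Dnajb9 and Xbp1 were also on the higher side in St OPCs, by 0.22 and 0.13 (adjusted p = 0.130 and 0.373). Atf4 was on the lower side, at −0.17 ± 0.055 SE (adjusted p = 0.0849), with the TNFR2-/- St values all below the WT St ones. Chac1 was 0.35 higher in TNFR2-/- NS (adjusted p = 0.185) and at −0.052 in St OPCs (adjusted p = 0.871), and Ddit3, Asns and Herpud1 differed by at most 0.15 in size in either condition.

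Whether the genotypes responded differently was tested as the interaction, the change in TNFR2-/- minus the change in WT OPCs. None of the 10 genes passed in limma, none did with voom, and 0.00553% of all genes passed in limma. At an unadjusted p under 0.05 there were 2 of the 10, beside 7.95% of all genes. Those 2 were Trib3, with the smaller change in TNFR2-/- OPCs (−0.41 ± 0.14 SE, unadjusted p = 0.0136, adjusted p = 0.543), and Sesn2 (−0.35 ± 0.14 SE, unadjusted p = 0.0266, adjusted p = 0.572). With the fixed and random block by culture, adjusted p values were 0.177 and 0.0840 for Trib3 and 0.158 and 0.0974 for Sesn2. On recovered reads (voom) the Trib3 interaction was −0.78 (adjusted p = 0.668), beyond the fold threshold in size. For Chac1 the interaction was −0.40 ± 0.24 SE (adjusted p = 0.725), with a 95% interval of −0.93 to 0.12. For the other 7 genes the adjusted p without a block was at least 0.727.

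Genes upstream of Atf4 were examined next. Of 12 genes for eIF2α kinases, its phosphatase and its exchange factor, 1 rose and 0 fell in WT St (median log2 fold change −0.026), beside 4.58% and 2.95% of all genes. In TNFR2-/- St 1 rose and 0 fell (median −0.054), beside 5.41% and 4.68%. In both genotypes the gene was Eif2ak2, which encodes PKR, an interferon-induced kinase that senses double-stranded RNA. Its values were 17.0, 14.5 and 12.6 FPKM in WT NS and 51.1, 39.3 and 44.0 in WT St, and 19.7, 15.9 and 26.5 in TNFR2-/- NS and 70.5, 72.1 and 113 in TNFR2-/- St. Within each genotype NS and St libraries did not overlap. Eif2ak2 rose by 1.58 ± 0.22 SE in WT (adjusted p = 0.000565) and 2.01 ± 0.22 SE in TNFR2-/- OPCs (adjusted p = 7.62e-05), passing in every alternative. It was also higher in TNFR2-/- St than in WT St, by 0.89 ± 0.22 SE (adjusted p = 0.0450), but this was lost in 13 of 23 alternatives, among them leaving out any 1 WT library, TNFR2-/- NS replicate 2, or TNFR2-/- St replicate 2 or 5, with adjusted p up to 0.155 without WT St replicate 3. Ppp1r15a, the phosphatase subunit GADD34 that ends the response, changed by −0.19 ± 0.10 SE in WT (adjusted p = 0.274) and 0.32 ± 0.10 SE in TNFR2-/- OPCs (adjusted p = 0.0420), below the fold threshold in both.

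Eif2ak3, which encodes PERK, the eIF2α kinase of the ER, did not pass with cytokines, at −0.079 ± 0.21 SE in WT and 0.051 ± 0.21 SE in TNFR2-/- OPCs (adjusted p = 0.873 and 0.892). It had 31.4, 43.3 and 36.5 FPKM in WT NS and 18.3, 27.0 and 15.3 in TNFR2-/- NS, and the difference of −0.89 ± 0.21 SE passed (adjusted p = 0.0298), the only one of the 12 genes to do so in NS OPCs (1.28% of all genes were called lower). By adjusted p alone 4 of the 12 passed there, and 9 had an unadjusted p under 0.05, beside 10.9% and 30.2% of all genes. Of the 12, 7 were higher in TNFR2-/- NS (median 0.22), opposite to Eif2ak3. In St OPCs Eif2ak3 had 31.6, 38.8 and 34.2 FPKM in WT and 18.5, 26.1 and 17.5 in TNFR2-/- libraries, again without overlap (−0.76 ± 0.21 SE, adjusted p = 0.0607), where voom called 1 gene of its list lower. The NS result was lost in 7 of 23 alternatives, among them leaving out WT NS replicate 3 (−0.77, adjusted p = 0.119), WT NS replicate 4, TNFR2-/- NS replicate 2, TNFR2-/- NS replicate 5 or all of culture 5. With Ern1 (IRE1), Atf6, Atf6b and the proteases that cut ATF6, the list of 6 ER stress genes had 0 genes that rose or fell with stimulation in either genotype. At an unadjusted p under 0.05 there were 3 in WT and 2 in TNFR2-/- OPCs (all genes 27.8% and 37.6%), and voom gave 0 in both. Atf6 changed by 0.28 ± 0.089 SE in WT (adjusted p = 0.0592) and 0.41 ± 0.089 SE in TNFR2-/- OPCs (adjusted p = 0.00673), and Ern1 by 0.18 ± 0.068 SE (adjusted p = 0.106) and 0.25 ± 0.068 SE (adjusted p = 0.0206), all below the fold threshold.

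Of 24 other genes known as ATF4 or CHOP targets, 5 rose and 1 fell in WT St (beside 4.58% and 2.95% of all genes), with a median log2 fold change of −0.13. In TNFR2-/- St 4 rose and 1 fell (beside 5.41% and 4.68%), with a median of −0.20. Of the 24, 17 lay below 0 in WT and 16 in TNFR2-/- OPCs, beside 61.3% and 66.3% of all genes. Atf3, a transcription factor that is also an immediate early gene, had 1.67, 2.57 and 2.68 FPKM in WT NS and 13.9, 13.9 and 16.3 in WT St, and 1.91, 1.72 and 1.04 in TNFR2-/- NS and 19.1, 18.4 and 28.4 in TNFR2-/- St. Its rise was 2.45 ± 0.22 SE in WT (adjusted p = 2.27e-05) and 3.45 ± 0.22 SE in TNFR2-/- OPCs (adjusted p = 1.29e-06). Nupr1, a stress-induced chromatin protein, rose by 1.47 ± 0.25 SE and 1.48 ± 0.25 SE, and Cebpb, a transcription factor of inflammation, by 1.44 ± 0.17 SE and 0.86 ± 0.17 SE (adjusted p between 0.000214 and 0.00431). Ddit4, an mTORC1 inhibitor also driven by glucocorticoids and hypoxia, fell by 0.85 on the log2 scale in WT (adjusted p = 0.000636) and by 1.23 in TNFR2-/- OPCs (adjusted p = 3.31e-05).

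Slc7a11, the cystine transporter that supplies glutathione synthesis, rose by 0.69 ± 0.19 SE in WT (adjusted p = 0.0318) and 1.38 ± 0.19 SE in TNFR2-/- OPCs (adjusted p = 0.000443). The WT result was lost whenever 1 of the 6 WT libraries was left out, with adjusted p rising to 0.118 without WT NS replicate 3, while the TNFR2-/- result passed in all 24 alternatives. In each genotype it thus moved opposite to Chac1, which degrades glutathione. Bbc3, the apoptosis effector PUMA, rose by 0.90 ± 0.17 SE in WT (adjusted p = 0.00374) and was at 0.52, below the fold threshold, in TNFR2-/- OPCs (adjusted p = 0.0401). Between genotypes, 2 of the 24 passed in each condition, all as higher in TNFR2-/- libraries. Of all genes, 1.62% were higher in NS and 1.18% in St OPCs. In NS OPCs Cebpb and Gpt2, an alanine aminotransferase, were higher in TNFR2-/- libraries, by 0.72 ± 0.17 SE and 0.63 ± 0.067 SE (adjusted p = 0.0307 and 0.00347), which was lost for Cebpb in 7 and for Gpt2 in 3 of 23 alternatives. In St OPCs Gpt2 was higher by 0.64 ± 0.067 SE (adjusted p = 0.00355), passing in all 23, and Slc7a11 by 0.78 ± 0.19 SE (adjusted p = 0.0444), lost in 13 of 23 (up to 0.155 without WT St replicate 3), among them without any 1 WT library, TNFR2-/- NS replicate 2, or TNFR2-/- St replicate 2 or 5. For Cebpb the libraries were WT NS replicates 3 and 4 and TNFR2-/- NS replicates 2 and 5, with adjusted p up to 0.121, and for Gpt2 WT NS replicate 4 (0.57, below the fold threshold).

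**Figure D4:**
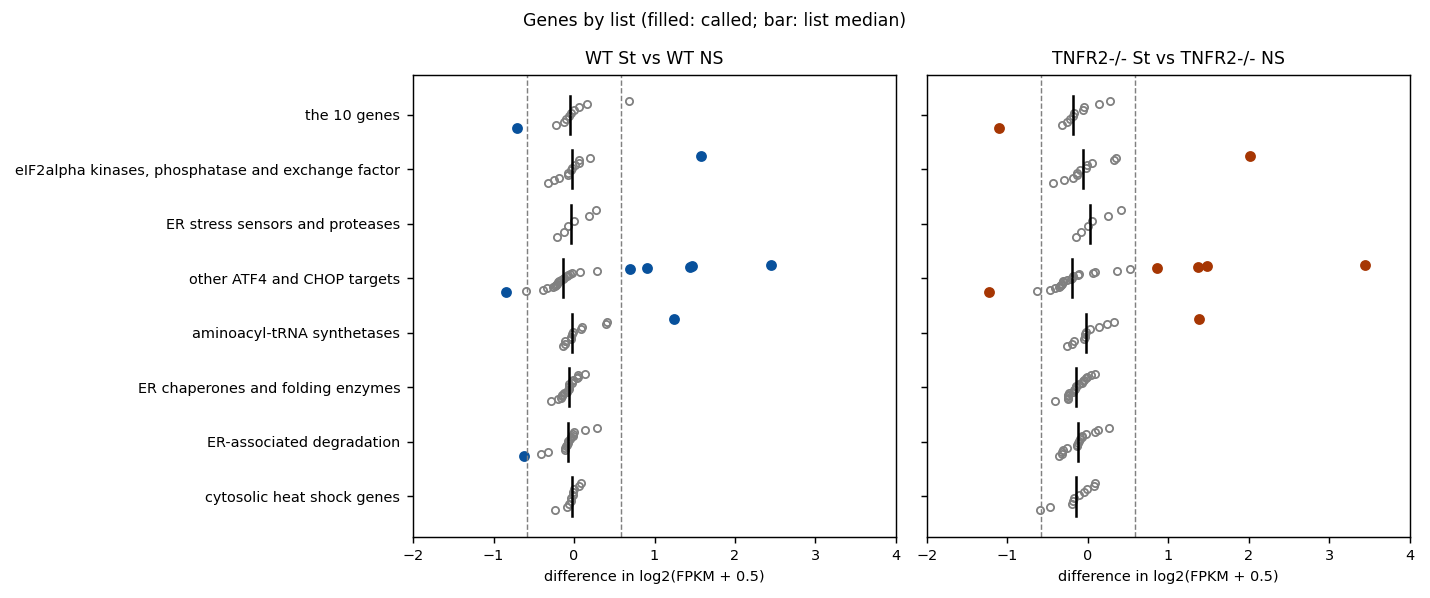
Log2 fold changes with stimulation of the 10 genes and each tested gene of 7 other gene lists (rows), on the horizontal axis as differences in log2(FPKM + 0.5), with WT OPCs on the left and TNFR2-/- OPCs on the right, filled points for genes that passed, bars at list medians and dashed lines at 1.5-fold either way. The medians of all rows plotted lie within the dashed lines, and the few genes far above it include Atf3, Eif2ak2 and Wars.

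In other gene groups that both responses act on, few genes passed. Of 12 aminoacyl-tRNA synthetases, 1 rose and 0 fell in each genotype (medians −0.021 and −0.024). Of all genes, 4.58% rose and 2.95% fell in WT, and 5.41% and 4.68% in TNFR2-/- OPCs. The synthetase gene that rose was Wars, the tryptophan synthetase that interferon γ is known to induce, by 1.25 ± 0.078 SE in WT and 1.38 ± 0.078 SE in TNFR2-/- OPCs (adjusted p = 1.34e-06 and 5.44e-07). Of 19 ER chaperones and folding enzymes, 0 passed in limma or voom in either genotype, and 4 in WT and 8 in TNFR2-/- OPCs had an unadjusted p under 0.05, beside 27.8% and 37.6% of all genes. Their medians were −0.066 and −0.15. Of 16 genes of ER-associated degradation, 1 fell in WT St, beside 2.95% of all genes, and 0 passed in TNFR2-/- St in limma or voom. In TNFR2-/- St 5 passed by adjusted p alone and 9 had an unadjusted p under 0.05, beside 26.0% and 37.6% of all genes. The gene that fell was Derl3, at −0.62 ± 0.095 SE (adjusted p = 0.00120), close to the fold threshold and below it with a pseudocount of 1 FPKM or median-of-ratios scaling. Of 10 cytosolic heat shock genes 0 passed in limma or voom, with 1 in WT and 2 in TNFR2-/- OPCs at an unadjusted p under 0.05.

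Of 10 immediate early genes, which respond within minutes to cytokines and also to handling, 4 rose and 3 fell in WT St, beside 4.58% and 2.95% of all genes. In TNFR2-/- St 6 rose and 1 fell, beside 5.41% and 4.68%. Without cytokines 6 of the 10 were lower in TNFR2-/- than in WT libraries (median log2 fold change −1.11, beside 1.28% of all genes called lower). That count fell to 1 without WT NS replicate 3 or 4, to 2 when TNFR2-/- NS replicate 5 was left out and to 3 when replicate 2 or all of culture 5 was, to 3 with no filter on low values, and to 0 with only the 6 libraries compared. It rose to 7 with the filter at a mean of 1 FPKM, and to 8 with voom or without TNFR2-/- NS replicate 4. Of the 10, 0 passed in St OPCs in limma or voom, with 3 at an unadjusted p under 0.05 there (all genes 26.7%). Atf3 is on both lists, and its difference between TNFR2-/- NS and WT NS was −0.45 ± 0.22 SE (adjusted p = 0.195). The interaction for Atf3 was 0.99 ± 0.31 SE (adjusted p = 0.512), so its response was not shown to differ between genotypes.

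The profiles of 1 gene per branch were also compared with those of 10600 other genes of at least 5 FPKM over the 12 libraries, as Pearson's r of log2(FPKM + 0.5). Most like Trib3 were Mgat1 (0.961), Pnpla2 (0.952), 1110004E09Rik (0.949), Mettl2 (0.948) and Sdhaf2 (0.941). Mgat1, a Golgi enzyme of N-glycan synthesis, averaged 718 FPKM in WT NS, 1027 in WT St, 840.1 in TNFR2-/- NS and 1023 in TNFR2-/- St, an order like that of Trib3, in which both NS groups lay below both St groups. Most like Hspa5 were Ccdc71 (0.929), Aldh1l1 (0.928), Itm2c (0.927), Rnaseh1 (0.925) and Polr2a (0.924). Aldh1l1 is used as an astrocyte marker, and it averaged 51.9, 47.7, 84.4 and 75.9 FPKM in WT NS, WT St, TNFR2-/- NS and TNFR2-/- St. The part of the astrocyte markers given above in the Hspa5 level was not tested. These are the highest of many correlations over 12 libraries that share groups and cultures, so they describe likeness only.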

How the data were processed

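OPC cultures were profiled by paired-end RNA-seq, and the deposited tables hold FPKM per gene in 12 libraries, which the authors made after trimming with Trim Galore, alignment to GRCm38, counting of read pairs per gene with STAR and edgeR, per the labels and methods. Whether read pairs were counted by strand is not given in the sources used here. The FPKM are whole multiples of 1 read, which gave back whole reads for 26636 of 26636 genes (within a relative tolerance of 2e-07), while the implied lengths bear no relation to annotated exon length (Spearman's rho 0.01 over 16016 genes).

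The 18081 genes that reached a mean of 0.1 FPKM were fitted as log2(FPKM + 0.5) with limma 3.58.1 (R 4.3.3, empirical Bayes with trend) over all 4 groups. The pseudocount understates changes of low genes. P values were adjusted by Benjamini-Hochberg over all tested genes, and a gene was called at an adjusted p not above 0.05, a 1.5-fold change (on the fitted log2 scale) and 1 FPKM or more as the mean of the 12 libraries. P values set a difference between group means against the spread between libraries within groups. That spread is a single estimate per gene, shared by all 4 groups and moderated across genes. In the unblocked model it takes no account of pairing by culture. Voom on recovered reads called 1426 genes with stimulation in WT and 1946 in TNFR2-/- OPCs, against 1361 and 1824 in limma on FPKM. The procedure was run on simulated, unpaired reads with large set changes in WT St only, and only calls in WT St against WT NS were checked. That run does not bear on small changes, low genes, pairing or comparisons between genotypes. For Trib3 and Hspa5, the 5 other genes of highest Pearson r are named.

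Same-numbered NS and St libraries within a genotype deviated together (r from 0.338 to 0.649 for 6 pairs, against −0.455 to 0.088 for 12 others), so they were treated as pairs, as fixed or random blocks beside the unblocked model, whereas 4 same-numbered pairs across genotypes (−0.055 to 0.204) were not. The pairing comes from the numbers in the labels and this check. Other alternatives were pseudocounts of 0.1 and 1 FPKM, filters, scalings, no trend, only the 6 libraries compared, and each replicate left out. A level rule of 2 CPM and leaving out TNFR2-/- culture 5 were added after the data were seen.

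The 10 genes and the gene lists were chosen with earlier results of these data known. Named from a list are its called genes, up to 4 with the largest change, and Eif2ak2, Eif2ak3, Ern1, Atf6, Atf3 and Ppp1r15a whatever their values. The immediate early genes are an exception, given as counts only, apart from Atf3. Ddit4 and Slc7a11 in WT and Cebpb in TNFR2-/- OPCs lay outside the first 4 and were added after their values were seen. Positions are from GENCODE M21 on GRCm38. Of the 10 genes, Dnajb9 shared 1.26% of its 100-base sequences with another gene and the other 9 shared none.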

Additional observations from a re-analysis of the deposited data

How the results depend on the processing

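Of the 10 genes, 1 passed with stimulation in each genotype and 0 between genotypes or in the interaction, and these counts changed in few alternatives, whose cause was not tested beyond their own construction. By adjusted p alone, with no fold or level required, the counts were 2 in WT St, 2 in TNFR2-/- St, 1 in TNFR2-/- NS against WT NS and 1 in TNFR2-/- St against WT St. With each library left out in turn the WT count ranged from 0 to 1. With the level at 2 CPM it was 2. The replicate block (NS and St libraries paired by culture) left 1 gene in WT St and 1 in TNFR2-/- St, fixed or random. It changed no other call made on p, fold and level together. By adjusted p alone, either block added Asns, Ddit3 and Herpud1 in TNFR2-/- St. The fixed block also added Dnajb9 there and the random block Trib3, while the random block removed Trib3 between genotypes in NS OPCs. Signs turned in 35 values of 14 gene and comparison pairs, all at an adjusted p of 0.381 or more. Under median-of-ratios scaling these were Atf4 in WT St (0.017), Hspa5 in WT St (0.053) and TNFR2-/- St (0.074), Xbp1 in TNFR2-/- St (0.051), Asns (−0.037) and Herpud1 (−0.0089) between genotypes in NS OPCs, and Hspa5 in the interaction (0.021). Under quantile normalization they were Hspa5 in WT St (0.0033) and Herpud1 between genotypes in NS OPCs (−0.028). Without culture 5 they were Ddit3 in NS (0.13) and Trib3 (0.059) and Chac1 (0.11) in St OPCs between genotypes. With single libraries left out, the ranges that crossed 0 were −0.048 to 0.030 for Hspa5 with stimulation in WT, −0.11 to 0.045 for Hspa5 with stimulation in TNFR2-/-, −0.15 to 0.041 for Xbp1 with stimulation in TNFR2-/-, −0.10 to 0.12 for Asns between genotypes in NS, −0.015 to 0.071 for Herpud1 between genotypes in NS, −0.15 to 0.13 for Ddit3 between genotypes in NS, −0.17 to 0.0056 for Herpud1 between genotypes in St, −0.21 to 0.11 for Chac1 between genotypes in St, −0.091 to 0.059 for Trib3 between genotypes in St, −0.24 to 0.035 for Ddit3 in the interaction, −0.10 to 0.051 for Hspa5 in the interaction, −0.054 to 0.14 for Xbp1 in the interaction and −0.014 to 0.15 for Dnajb9 in the interaction. Depth is lowest for Trib3, at 80 to 255 reads per library, and for Chac1, at 143 to 486, and 3 libraries per group limit every comparison between genotypes.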
